A study of Mus musculus with 4 samples.

Results

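The tissue kallikreins of the mouse are encoded by Klk1 and a group of closely related genes named Klk1b followed by a number. All gene exon sense features whose symbol is Klk1 or Klk1b with a number were taken, which gave 14 genes of 12415 gene exon sense features and of 25745 features in the whole table. The group was proposed because Klk1b21, Klk1b22, Klk1b24 and Klk1b27 had low values in the knockout in these same counts, so the genotype differences of all 14 genes are given below as descriptions. Counts of members called by a test are set beside the share of all features called and support nothing further. Testicular total RNA of adult (P60) mice on a C57Bl/6J background was sequenced in 4 strand-specific libraries after removal of ribosomal RNA, 2 from Nef-sp-/- and 2 from Nef-sp+/- animals. Nef-sp encodes a testis-specific 3′ to 5′ exoribonuclease. The null allele is an out-of-frame deletion made with Cas9 nickase and a pair of guide RNAs, is carried by every cell of the animal and was kept as 1 mutant line. Both groups therefore carry the null allele, on 1 chromosome in the Nef-sp+/- controls, and no wild-type library was analysed here.

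Tissue kallikreins are secreted serine proteases. They are made as inactive precursors, are activated by removal of a short propeptide and cut after basic residues. Klk1 releases kinins, peptides that dilate blood vessels, from kininogen. The mouse Klk1b genes arose by repeated duplication of such a gene and are known mainly from the salivary gland. Several encode proteases that process growth factors, among them the epidermal growth factor binding proteins and the gamma subunit of the nerve growth factor complex. Klk1b21, Klk1b24 and Klk1b27 are known as kallikreins of the testis, where Leydig cells make them. Leydig cells lie between the seminiferous tubules and produce testosterone.

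The genes form 1 cluster. In GENCODE vM1 on NCBIM37 (mm9), the build of the files, the 14 genes lie on the plus strand of chromosome 7 within 279 kb, 75.5 Mb from Nef-sp on the same chromosome. The order along the chromosome is Klk1b8, Klk1b1, Klk1b9, Klk1b11, Klk1b26, Klk1b27, Klk1b21, Klk1b22, Klk1b16, Klk1b24, Klk1b3, Klk1b4, Klk1b5 and Klk1. Each has 5 exons. Klk1b27 spans chr7:51307660-51312075, Klk1b21 chr7:51357662-51361944, Klk1b22 chr7:51368043-51372292 and Klk1b24 chr7:51443606-51447822. Klk1b16 separates Klk1b22 from Klk1b24. Within 100 kb on either side of the cluster or inside it, 10 other protein-coding genes are annotated: Klk5, Klk4, Klk15, Klk1b7-ps, Gm10109, 1700028J19Rik, 2410002F23Rik, Acpt, Clec11a and Shank1. Only Clec11a is among the gene exon sense features, and its counts were too low to be tested.

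The upstream sequences show how alike the genes are. RefSeq promoter windows (GRCm38.p6, 250 bases before to 50 after the annotated start) were found for all 14 genes and aligned. Below is the stretch of each gene that aligns with bases -160 to -61 of Klk1b21, for the 4 genes and for Klk1b8 and Klk1b9, which are also abundant in testis. It is shown because Klk1b24 and Klk1b27 differ least from Klk1b21 here. All are plus strand, 5′ to 3′, and capitals mark bases that differ from the aligned base of Klk1b21.
Klk1b21: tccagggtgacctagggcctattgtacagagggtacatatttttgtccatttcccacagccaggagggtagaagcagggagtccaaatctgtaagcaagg
Klk1b24: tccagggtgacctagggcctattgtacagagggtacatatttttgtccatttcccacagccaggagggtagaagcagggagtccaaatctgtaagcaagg
Klk1b27: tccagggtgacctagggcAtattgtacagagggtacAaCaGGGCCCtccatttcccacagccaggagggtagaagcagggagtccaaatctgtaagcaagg
Klk1b22: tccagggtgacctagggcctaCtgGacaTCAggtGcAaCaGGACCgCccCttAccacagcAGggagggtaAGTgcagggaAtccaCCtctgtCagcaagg
Klk1b8: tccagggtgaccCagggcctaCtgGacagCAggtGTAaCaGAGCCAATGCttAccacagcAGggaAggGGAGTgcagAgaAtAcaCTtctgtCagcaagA
Klk1b9: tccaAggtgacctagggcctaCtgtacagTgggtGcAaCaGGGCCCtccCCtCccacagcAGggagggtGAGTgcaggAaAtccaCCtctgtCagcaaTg

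The stretches lie at chr7:44102132-44102231 for Klk1b21, chr7:44188041-44188140 for Klk1b24, chr7:44052107-44052207 for Klk1b27, chr7:44112467-44112566 for Klk1b22, chr7:43950456-43950555 for Klk1b8 and chr7:43975862-43975961 for Klk1b9 of GRCm38.p6. Klk1b24 differed from Klk1b21 at 0 of 100 aligned positions, and Klk1b27 differed at 9 of 101. The other 11 genes differed at 20 positions (Klk1b26) to 36 positions (Klk1b8), with 26 for Klk1b22. Over all aligned upstream bases, Klk1b21 was 97.7% identical to Klk1b24, 94.6% to Klk1b27 and 81.3% to Klk1b22. Klk1b22 thus stands apart from Klk1b21, Klk1b24 and Klk1b27 in its upstream sequence. Klk1b26, Klk1b8 and Klk1b9 were 87.7%, 87.3% and 85.7% identical to Klk1b21 over all aligned upstream bases. The place of Klk1b8 as the farthest gene therefore depends on the stretch.

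Short motifs were searched on both strands of the 300-base windows. TTTAAA, an A/T-rich hexamer that reads the same on both strands, was found in 13 of the 14 genes, all but Klk1, against 13.2% of 32851 RefSeq mouse promoters. In Klk1b21 it lies after the annotated start and in the other 12 before it, so the annotated starts are not aligned with one another. TATAAA was found in 0 of 14, against 13.6% of all promoters. AGGTCA, the half-site of many nuclear receptors, was found in 11 of 14, against 16.3% of all promoters, and its reverse complement tgacct is visible near the beginning of the printed stretches of Klk1b21, Klk1b24, Klk1b27, Klk1b22 and Klk1b9. CAAGGTCA, a site of the nuclear receptor 5A family that contains AGGTCA, was found in Klk1b21 and Klk1 and in 1.56% of all promoters. AGAACA, a half-site of the androgen receptor, was found in 2 of 14, Klk1b24 and Klk1b3, against 19.0% of all promoters. TGANTCA, the AP-1 site, was found in 0 members and in 7.81% of all promoters. The members are copies of one another and are not independent in these letters, and a match is a description, not a binding site.

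The libraries held 20659865 to 34442517 reads over all annotation categories, of which 15815159 to 26618821 were gene exon sense reads, and Nef-sp+/- replicate 2 was the deepest. Normalised counts below are counts scaled to a common library size. Nef-sp, listed as 2610020H08Rik, had normalised counts of 1843 and 1693 in the controls against 407 and 497 in the knockout. This is a log2 fold change of -1.97 (SE 0.0921, edgeR quasi-likelihood test, adjusted p = 4.12e-06), in the direction of the labels in all 4 libraries. The tissue was checked by its germ cell genes, of which 7 of 7 were listed. Prm1, which encodes a protamine of sperm chromatin, had normalised counts of 73471 to 88718, lowest in Nef-sp+/- replicate 1. Summed, the germ cell genes had 413155 and 480955 in Nef-sp+/- replicates 1 and 2. In Nef-sp-/- replicates 1 and 2 the sums were 492340 and 480976. The labels do not say whether the libraries came from separate animals, so the SDs below are the spread between these libraries. The SEs are those of the edgeR fit, whose variance estimates draw on all features tested. The pooled SD of log2 normalised counts within a genotype was larger than the SE for Klk1b21 (0.279), Klk1b22 (0.523), Klk1b24 (0.256) and Klk1b27 (0.360).

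The level of the members in testis spans a wide range. Levels were compared between genes as RPKM, the exon sense reads per kilobase of annotated exon and per 1000000 gene exon sense reads of the library. Klk1b8 was the highest, with 96.7, 107, 114 and 117 in Nef-sp+/- replicates 1 and 2 and Nef-sp-/- replicates 1 and 2. The highest value of any other member in any library was 47.5. Klk1b21 (mean 29.0, range 19.8 to 45.4), Klk1b27 (29.0, 17.7 to 47.5), Klk1b24 (23.7, 17.3 to 35.2) and Klk1b9 (21.3, 20.1 to 22.4) followed, and their ranges overlap. Klk1b22 (8.38, 6.43 to 14.04) lay below all 5 in every library. Klk1b3, which encodes the gamma subunit of nerve growth factor, reached 2.95 (2.21 to 3.86), still apart from the genes on either side. Klk1, the kininogen-cleaving kallikrein itself, had 1.68 (1.52 to 1.84) and lay just above Klk1b5 (1.13, 0.807 to 1.48) and Klk1b26 (1.13, 0.942 to 1.45), which overlap each other. Klk1b4 (alpha subunit of nerve growth factor), Klk1b16, Klk1b11 and Klk1b1 lay between 0.0729 and 0.377 and cannot be ordered.

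The order of the abundant genes by RPKM differed between the genotypes. In both Nef-sp+/- libraries Klk1b21, Klk1b27 and Klk1b24 were all above Klk1b9. In both Nef-sp-/- libraries Klk1b9 was above all of them. In Nef-sp-/- replicate 1 Klk1b9 had 22.2, Klk1b27 21.5, Klk1b21 20.7 and Klk1b24 17.3 RPKM. In replicate 2 the values were 20.6 for Klk1b9, 19.8 for Klk1b21, 18.2 for Klk1b24 and 17.7 for Klk1b27. The neighbouring values are close, and this order depends on the length used. Levels were also taken per kilobase of 50-base windows of the spliced transcript that occur in transcripts of 1 protein-coding gene only. Per kilobase of these windows, Klk1b21 was above Klk1b9 in all 4 libraries (30.5 against 27.8 and 29.1 against 25.8 in the Nef-sp-/- libraries). By that measure Klk1b24 was below Klk1b9 in Nef-sp-/- replicate 1 (27.1) and above it in replicate 2 (28.5), and Klk1b27 was below it in both (26.6 and 21.9).

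**Figure D1:**
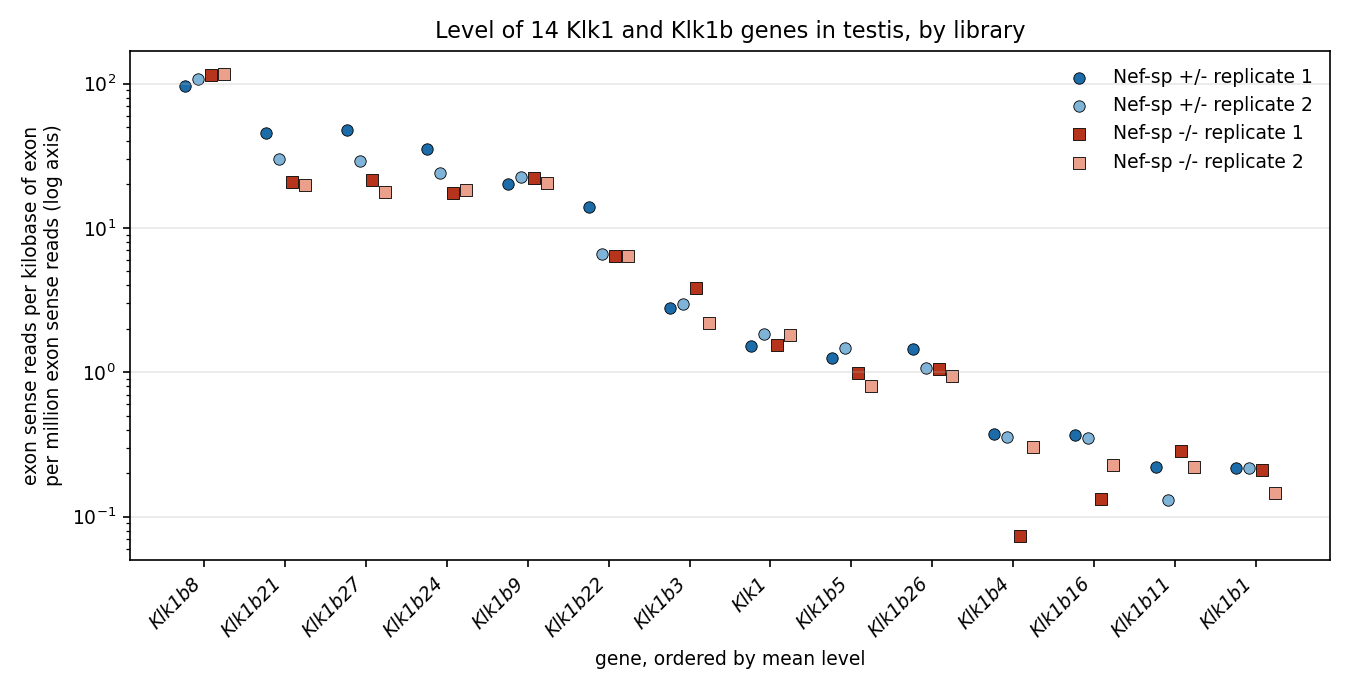
Level of each of the 14 Klk1 and Klk1b genes (horizontal axis, ordered by mean level) in RPKM (vertical axis, log scale), 1 point per library, circles for Nef-sp+/- and squares for Nef-sp-/-. Klk1b8 lies at 96.7 to 117 in all libraries, while Klk1b21, Klk1b27, Klk1b24 and Klk1b22 have their highest point in Nef-sp+/- replicate 1.

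Reads of 14 such similar genes can be hard to tell apart. Reads were sequenced for 50 cycles and kept where they matched the genome perfectly, and how reads with several matches were counted is not given in the sources used here. Every 50-base window within the exons was therefore compared with the genome of the build of the files. The share of windows found nowhere else was 70.9% for Klk1b21, 68.6% for Klk1b24, 80.7% for Klk1b27, 84.4% for Klk1b22, 84.2% for Klk1b8 and 81.3% for Klk1b9. Klk1b21 and Klk1b24 shared 130 windows, Klk1b24 and Klk1b27 shared 87, and Klk1b21 and Klk1b27 shared 76. Klk1b22 shared 33 with Klk1b21, 21 with Klk1b24 and 1 with Klk1b27. The spliced transcripts had the same pattern: Klk1b21 was 94.1% identical to Klk1b24, 93.9% to Klk1b27 and 89.3% to Klk1b22.

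For low-count members such as Klk1b26 and Klk1b16, the counts put a limit on how much shared reads can add. At even coverage, the 69 windows that Klk1b26 shares with Klk1b8 would give Klk1b26 196 normalised counts if each such read were counted in full at both genes, and Klk1b26 had 18.3 on average. The 23 windows that Klk1b16 shares with Klk1b8 would give 65.2, and Klk1b16 had 6.94. The same arithmetic gives Klk1b24, with a mean of 385, 96.2 counts from Klk1b21 and 64.8 from Klk1b27. It gives Klk1b21, with 483, 79.4 from Klk1b24 and 56.6 from Klk1b27, and it gives Klk1b27, with 474, 56.2 from Klk1b21 and 53.1 from Klk1b24. For Klk1b22, with 133, it gives 24.4 from Klk1b21 and 12.8 from Klk1b24. For Klk1b21, Klk1b24, Klk1b27 and Klk1b22 each of these gains lies below the count, so the counts set no such limit. How the reads were split among these genes was not tested. Divided by the spliced-transcript windows found in 1 gene only, Klk1b24 and Klk1b27 exchanged places in the order of mean levels. The other 12 members kept theirs. The same division by the exon windows matched to the genome was not made.

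**Figure D2:**
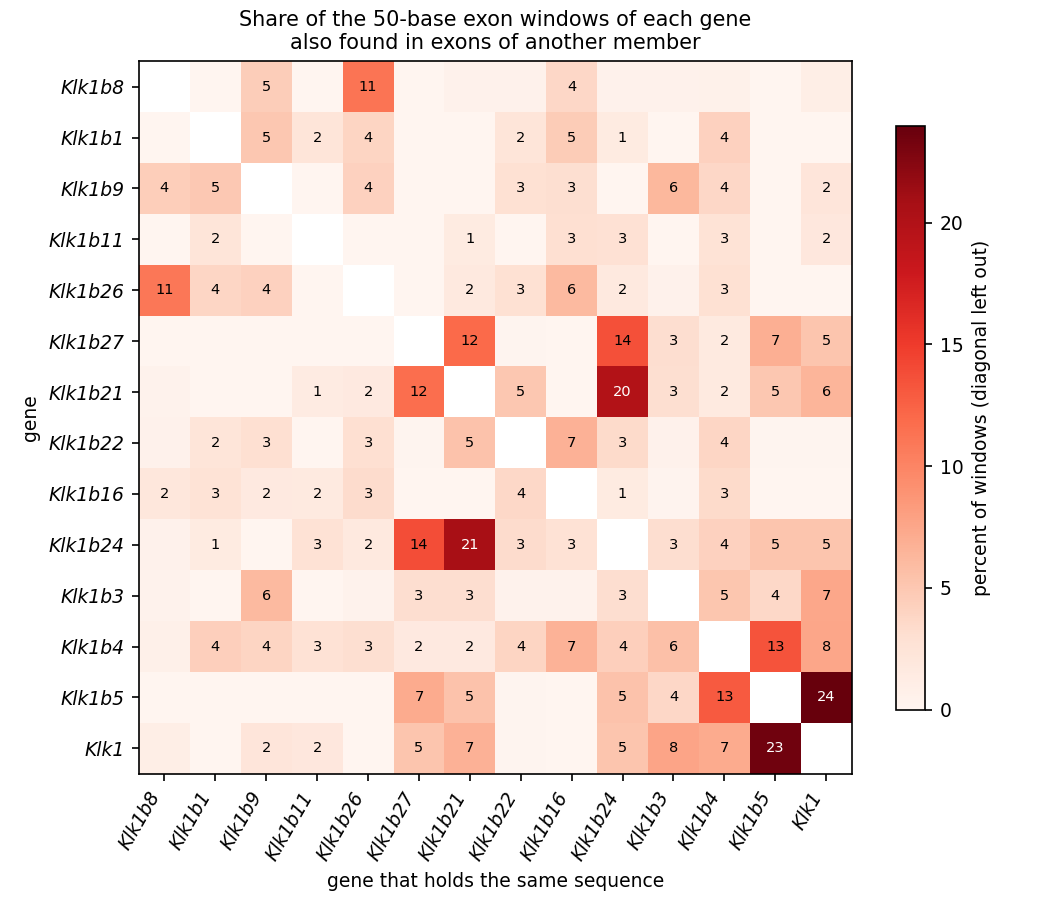
Share of the 50-base exon windows of each gene (rows, in chromosomal order) that is also found in the exons of another member (columns), in percent. The darkest pairs are Klk1 with Klk1b5 and Klk1b21 with Klk1b24, which share 148 and 130 windows.

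The knockout and the controls were then compared gene by gene. The testis kallikreins Klk1b21, Klk1b24 and Klk1b27 were lower in both Nef-sp-/- libraries than in both Nef-sp+/- libraries. Their values also differed between the Nef-sp+/- libraries, with replicate 1 above replicate 2 for each. Klk1b22 was high in Nef-sp+/- replicate 1 alone. Klk1b8, Klk1b9, Klk1b3 and Klk1 had log2 fold changes between -0.02 and 0.20.

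Klk1b21 had normalised counts of 742 and 506 in Nef-sp+/- replicates 1 and 2 and of 351 and 332 in Nef-sp-/- replicates 1 and 2, from 645, 719, 304 and 281 reads. The group means were 624 ± 167 (SD, n = 2) and 342 ± 13.1 (SD, n = 2), with a log2 fold change of -0.84 (SE 0.154). The Nef-sp-/- libraries lie close together, and the Nef-sp+/- libraries do not. Klk1b27 had 763 and 483 against 358 and 292 (623 ± 198 and 325 ± 46.5, SD, n = 2), a log2 fold change of -0.91 (SE 0.187). Its groups do not overlap. Klk1b24 had 560 and 394 against 286 and 298 (477 ± 118 and 292 ± 8.33, SD, n = 2), a log2 fold change of -0.68 (SE 0.148). For each of these genes, the Nef-sp+/- libraries are farther apart than the lower of them is from the higher Nef-sp-/- library.

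Klk1b22, which encodes an epidermal growth factor binding protein, had 219 and 106 against 104 and 103 (162 ± 79.9 and 103 ± 0.702, SD, n = 2). Its log2 fold change of -0.56 (SE 0.287) rests on Nef-sp+/- replicate 1, since the other 3 libraries lie within 3 normalised counts of one another. Without that library the log2 fold change was -0.029 (SE 0.190). The same omission left -0.57 for Klk1b21, -0.57 for Klk1b27 and -0.43 for Klk1b24. Without Nef-sp+/- replicate 2 the values were -1.12, -1.23, -0.94 and, for Klk1b22, -1.08. The direction was the same under each omission, and the size depended on which Nef-sp+/- library was kept.

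Klk1b8, the most abundant member, had 1512 and 1728 against 1850 and 1877 (1620 ± 153 and 1863 ± 18.8, SD, n = 2), a log2 fold change of 0.20 (SE 0.0723). Its lowest value fell in Nef-sp+/- replicate 1, the library with the highest Klk1b21, Klk1b22, Klk1b24 and Klk1b27. Klk1b9, an epidermal growth factor binding protein gene, had 319 and 365 against 364 and 335, a log2 fold change of 0.02 (SE 0.0983), and its groups overlap. Klk1b3 had 44.9 and 49.3 against 64.7 and 36.7, and Klk1 had 24.2 and 30.3 against 25.4 and 29.6. For both, the genotypes overlap. The log2 fold change of Klk1b3 was 0.10 with all libraries and -0.37 without Nef-sp-/- replicate 1 and 0.45 without Nef-sp-/- replicate 2.

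Klk1b5 had 19.6 and 23.9 against 16.2 and 13.02, a log2 fold change of -0.60 (SE 0.319) at 11 to 34 reads per library. Klk1b26, which encodes an epidermal growth factor binding protein, had 23.0 and 17.6 against 17.3 and 15.4. Both were nominally lower in each Nef-sp-/- library, at counts where a few reads decide the value. Klk1b1, Klk1b4, Klk1b11 and Klk1b16 had 1 to 13 reads per library and did not pass the filter on low counts. Outside the exon sense category, Klk1b9 alone was listed, with 1, 4, 2 and 1 intron sense reads.

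**Figure D3:**
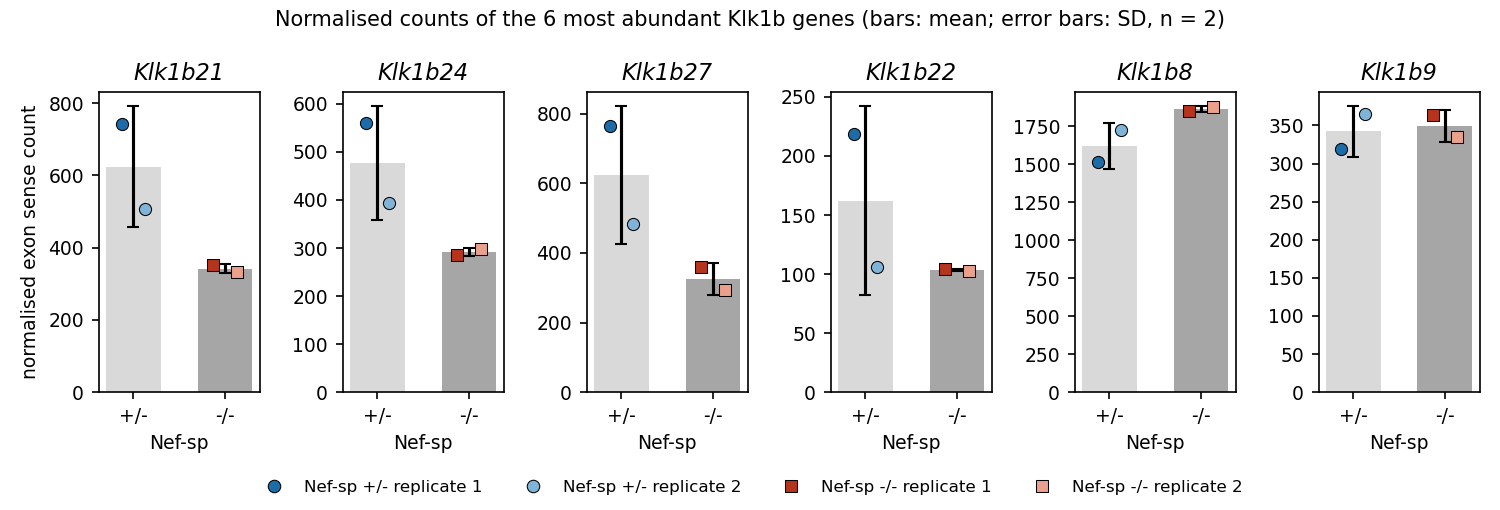
Normalised exon sense counts (vertical axes, starting at 0, a different scale for each gene) of the 6 most abundant Klk1b genes in Nef-sp+/- (circles) and Nef-sp-/- (squares) libraries, with bars at the mean and error bars of 1 SD (n = 2). Klk1b21, Klk1b24 and Klk1b27 lie lower in both Nef-sp-/- libraries, Klk1b22 is high in Nef-sp+/- replicate 1 alone (219 against 103 to 106), and Klk1b9 overlaps.

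Of the 14 members, 10 passed the filter on low counts. P-values of the edgeR quasi-likelihood test were adjusted over the 10728 gene exon sense features tested. Past the threshold of 0.05 were 0 of the 10 members and 1 feature in all, Nef-sp, or 0.00932% of those tested. An unadjusted edgeR p under 0.05 was found for 4 of the 10 and for 515 of the 10728. The 4 were Klk1b21, Klk1b24, Klk1b27 and, in the higher direction, Klk1b8. Klk1b22 had an unadjusted edgeR p of 0.0755. With DESeq2, the tool of the study, 1 member passed, Klk1b21, and 0.0161% of features. That run covered all 14 members and 12415 features, without the filter on low counts. The paper, also with DESeq2 at an adjusted p of 0.05, noted no significant change besides Nef-sp among exonic and intronic sense reads. Both Nef-sp-/- libraries lay below both Nef-sp+/- libraries in 6 of the 10 members and in 18.1% of all features, and above in 1, Klk1b8, and in 16.4% of all features. A log2 fold change below -0.5 was found in 5 of the 10 and in 1.62% of all features. Nef-sp+/- replicate 1 was the highest library in 5 of the 10 and in 27.2% of all features. These counts come from the contrast that the members were chosen on and describe it. The median log2 fold change was -0.42 over the 10 members and 0.00 over all features.

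The number of calls moved with the libraries kept. Without Nef-sp+/- replicate 1, the edgeR test called 3 members (Klk1b21, Klk1b24 and Klk1b27) and 41 features in all, or 0.376% of those tested. Without Nef-sp+/- replicate 2 it called 5 members (these, Klk1b22 and, in the higher direction, Klk1b8) and 252 features in all, or 2.32% of those tested. Without Nef-sp-/- replicate 1 or 2 it called 0 members and 0.00918% of features. The members were chosen on these same counts, so their calls describe how the counts depend on the libraries and are no independent test. With 1 library left in a group, that library is assumed to vary like the 2 of the other group.

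Nef-sp+/- replicate 1 held the extreme values. Among 9124 features with a mean normalised count over 50, the log2 excess of Nef-sp+/- replicate 1 over the mean of the other 3 libraries was largest for Nef-sp. Klk1b22, Klk1b27, Klk1b21 and Klk1b24 came next, in that order, with 1.07, 1.04, 0.93 and 0.80, and the feature after them, Wfdc1, had 0.69. Nef-sp+/- replicate 2 alone also lay above the mean of the Nef-sp-/- libraries for Klk1b27, Klk1b21 and Klk1b24, at ranks 18, 19 and 61 of the 9124, while Klk1b22 ranked 3453. Among these 9124, Klk1b27, Klk1b21, Klk1b24 and Klk1b22 had ranks 2, 4, 8 and 14 from the lowest log2 fold change, and over all 10728 features tested they had ranks 20, 28, 72 and 130. Over all 10728, their ranks for the excess of Nef-sp+/- replicate 1 were 9, 22, 40 and 7. For Nef-sp+/- replicate 2 over the Nef-sp-/- mean they were 156, 162, 322 and 4326. These ranks describe the values that the members were chosen on.

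**Figure D4:**
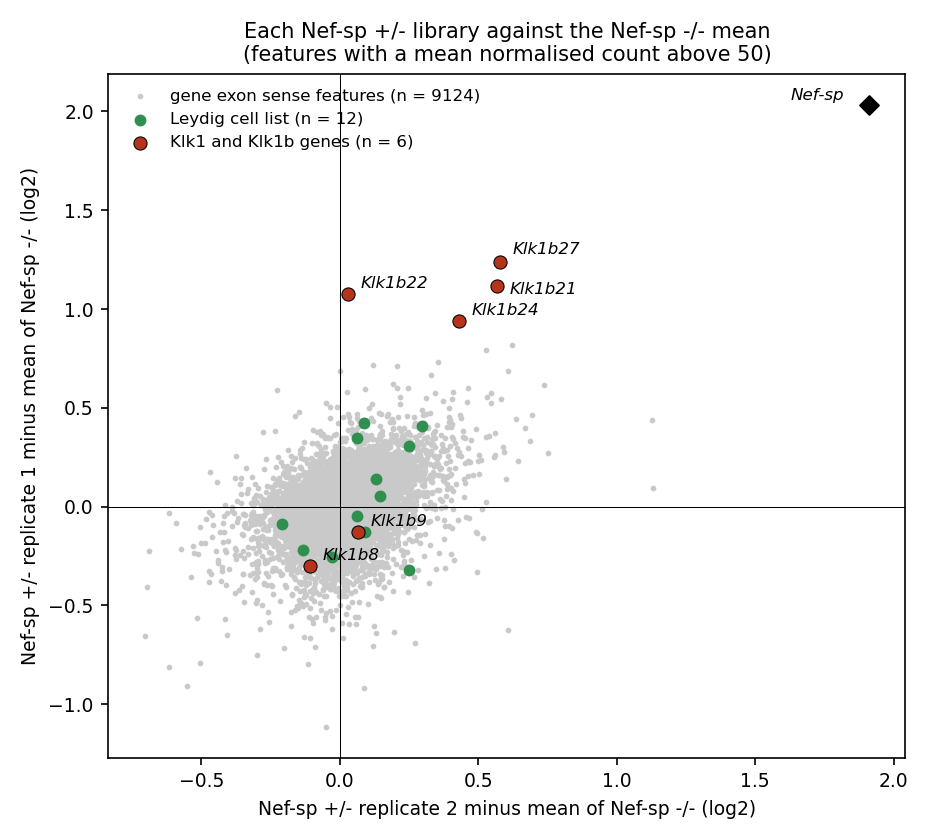
Log2 difference of each Nef-sp+/- library from the mean of the Nef-sp-/- libraries, replicate 2 on the horizontal and replicate 1 on the vertical axis, for 9124 gene exon sense features with a mean normalised count above 50 (grey), the Leydig cell list (green), the 6 members above that level (red) and Nef-sp (black). Klk1b21, Klk1b24 and Klk1b27 lie above 0 on both axes, Klk1b22 near 0 on the horizontal axis, and Klk1b8 and Klk1b9 within the cloud.

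The makeup of the kallikrein reads, which needs no scaling between libraries, was computed from the raw counts. Klk1b21, Klk1b22, Klk1b24 and Klk1b27 together held 53.8% (95% Wilson interval 52.2 to 55.4) of the 3692 Klk1 and Klk1b reads of Nef-sp+/- replicate 1 and 39.98% (38.7 to 41.3) of the 5288 of replicate 2. In Nef-sp-/- replicates 1 and 2 they held 31.9% (30.2 to 33.6) of 2987 and 30.6% (29.0 to 32.4) of 2830. The Nef-sp-/- libraries differ by less than counting error, and the Nef-sp+/- libraries lie apart from them and from each other. Klk1b8 held 35.6%, 46.4%, 53.6% and 56.0% in the same order. The intervals cover counting error only.

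The shares of the 4 genes among their own reads were then compared. Klk1b21 held 32.5%, 34.01%, 31.9% and 32.4% of their reads in Nef-sp+/- replicates 1 and 2 and Nef-sp-/- replicates 1 and 2. Klk1b24 held 24.5%, 26.4%, 26.1% and 29.1%, and Klk1b27 33.4%, 32.5%, 32.6% and 28.5%. The lowest share of Klk1b27, in Nef-sp-/- replicate 2 (25.6 to 31.6), and its highest, in Nef-sp+/- replicate 1 (31.4 to 35.5), overlap only at the ends of their intervals. Klk1b22 held 9.57% (8.35 to 10.9), 7.10% (6.08 to 8.27), 9.45% (7.75 to 11.5) and 10.03% (8.21 to 12.2), and the intervals of the Nef-sp+/- libraries do not overlap. Summed, the 4 genes had normalised counts of 2285, 1489, 1099 and 1026, and the other 10 members 1965, 2235, 2350 and 2323.

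Along the chromosome, both Nef-sp-/- libraries lay below both Nef-sp+/- libraries for the consecutive genes Klk1b26, Klk1b27, Klk1b21, Klk1b22, Klk1b16 and Klk1b24, and for Klk1b4 and Klk1b5. Over all features tested, 18.1% lay lower in this way. Among the genes named, Klk1b26, Klk1b22 and Klk1b4 were separated by less than 3 normalised counts. Klk1b4 had 1 to 8 reads per library, and neither it nor Klk1b16 passed the filter on low counts. Klk1b16, between Klk1b22 and Klk1b24, had 9.21 and 9.15 against 3.46 and 5.92, from 3 to 13 reads per library. At the Klk1b8 end, Klk1b8, Klk1b1, Klk1b9 and Klk1b11 were not lower in this way, and neither were Klk1b3, next to Klk1b24, with a log2 fold change of 0.10 (SE 0.256), and Klk1 at the other end. Reads of shared sequence could enter these low counts. At even coverage and full counting at both genes, Klk1b5, with a mean of 18.2, would get 32.7 from Klk1b27 and 24.4 from Klk1b21. Klk1b16, with 6.94, would get 10.4 from Klk1b24 and 65.2 from Klk1b8. Klk1b4, with 4.32, would get 15.9 from Klk1b24 and 11.3 from Klk1b8. The part of shared reads in these values was not tested, and no test of position was made.

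**Figure D5:**
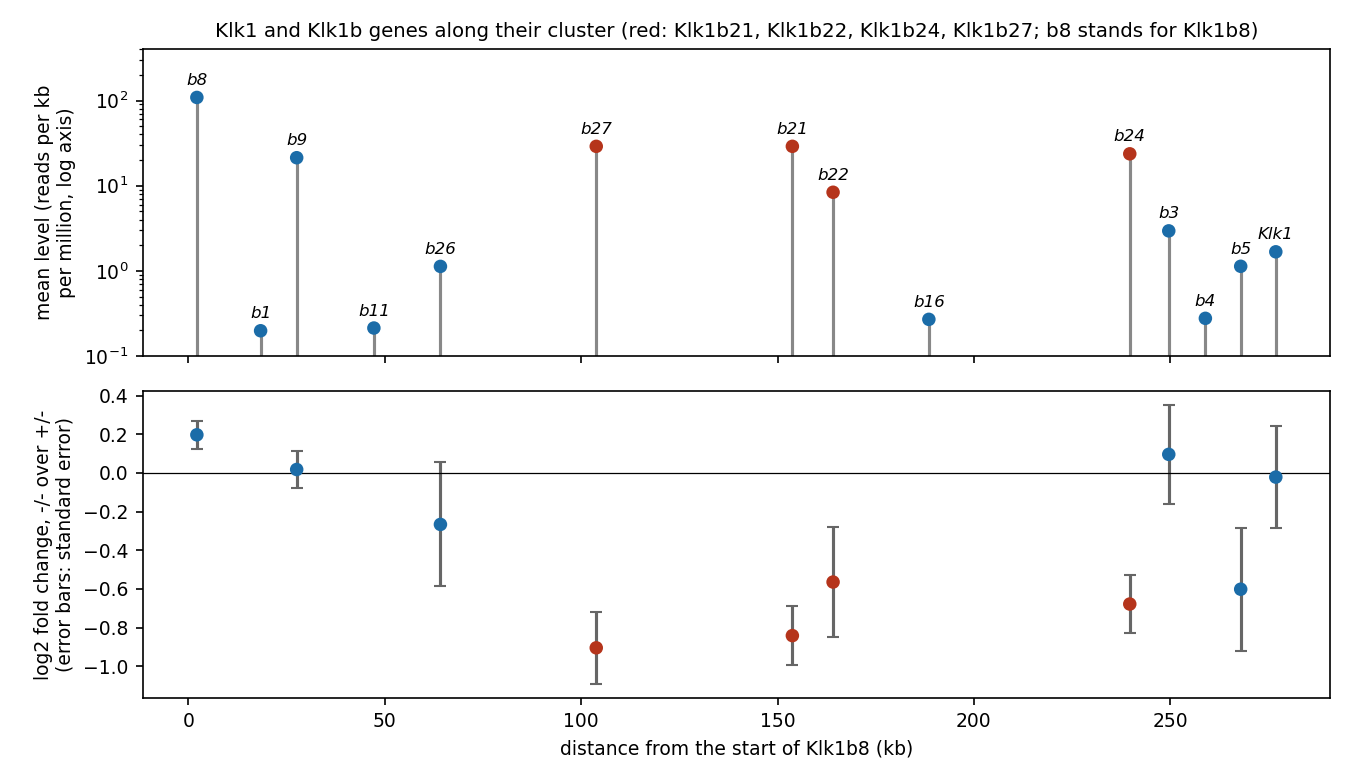
Mean level (upper panel, RPKM, log axis) of the 14 genes and genotype difference as log2 fold change, knockout over control (lower panel, error bars of 1 SE, the 10 genes past the filter) against distance from the start of Klk1b8 in kb. Klk1b27, Klk1b21, Klk1b22 and Klk1b24 (red) have values from -0.91 to -0.56, and Klk1b3 beside Klk1b24 has 0.10.

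The features whose pattern over the 4 libraries was most like that of Klk1b21 were sought over all 10727 other features tested. Likeness was the root mean square distance between log2 normalised counts centred on their mean. The 10 nearest were Ncdn, Mdk, Ern1, Nkain1, Mpnd, Col4a5, Klk1b27, Klk1b24, Pcyt1b and Bcs1l. Klk1b27 and Klk1b24 had distances of 0.0906 and 0.0941. The other 8 had mean normalised counts of 10.5 (Pcyt1b) to 35.9 (Col4a5), where counting noise is large, against 474 and 385 for Klk1b27 and Klk1b24. Klk1b22 was at rank 66, Klk1b26 at rank 149 and Klk1b5 at rank 370. Klk1b9, Klk1, Klk1b3 and Klk1b8 were at rank 8068 or beyond. A pattern over 4 libraries has few degrees of freedom, and the ranks are descriptions.

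The genes of the kallikrein pathway and its inhibitors were looked at next. Of Klk4 to Klk15 and the plasma kallikrein gene Klkb1, only Klkb1 was listed, with 77.1 and 109 normalised counts against 103 and 97.0 and a log2 fold change of 0.06. No kininogen or kinin receptor gene was listed. Of 11 kinin pathway genes, 5 were listed and tested, all of them peptidases that degrade kinins, and 0 were past the threshold in either direction. Ace, which encodes the angiotensin-converting enzyme and has a testis form, had 10440 and 12721 against 12885 and 12276, a log2 fold change of 0.12 (SE 0.0852, edgeR adjusted p = 0.954). The other 4, Xpnpep1, Cpd, Cpn1 and Mme, had log2 fold changes of -0.09 to 0.01. Of 7 protease inhibitor genes, 4 were listed and 3 tested, and 0 were past the threshold. Spink2, an acrosomal protease inhibitor gene, had a log2 fold change of 0.04, Serpina5, the protein C inhibitor gene, -0.02, and Serpina3c -0.12. The kinin and inhibitor lists had median log2 fold changes of -0.01 and -0.02, against 0.00 over all features.

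Leydig cell genes were examined because Klk1b21, Klk1b24 and Klk1b27 are known from these cells. In whole testis, fewer cells of a type and less RNA per cell cannot be told apart. Of 14 listed markers 13 were present and tested (Hsd11b1 was not listed), and 0 were past the threshold in either direction. Their median log2 fold change was 0.00. Their summed normalised counts were 22920 and 23155 against 21944 and 19363, and 5 of 13 were lower in both Nef-sp-/- libraries without overlap, against 18.1% of all features.

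The markers did not move as one. Cyp11a1, which encodes the enzyme of the first step of steroid synthesis, had 3511 and 3248 against 2886 and 2422, a log2 fold change of -0.35 (SE 0.0820, edgeR adjusted p = 0.859). Cyp17a1, which encodes the 17-alpha-hydroxylase of androgen synthesis, had 10616 and 10209 against 9284 and 7950, a log2 fold change of -0.27 (SE 0.0754, edgeR adjusted p = 0.954). In both, the Nef-sp-/- values are lower, by less than in the kallikreins. Hsd17b3, Prlr and Fdx1 were also lower in both Nef-sp-/- libraries without overlap, with log2 fold changes of -0.19, -0.24 and -0.13. Star, which moves cholesterol into mitochondria, had 1366 and 2030 against 2403 and 1214, and the genotypes overlap. Insl3, a peptide hormone of Leydig cells, had 353 and 375 against 352 and 479, and Nr5a1, the transcription factor that binds the CAAGGTCA site, had 384 and 450 against 443 and 476. In Nef-sp+/- replicate 1, the library with the highest kallikreins, the median log2 excess of the list over the other 3 libraries was 0.01. No marker of the list exceeded 0.44. That library was the highest of the 4 for 6 of the 13 markers, against 27.2% of all features. The part of Leydig cells in the kallikrein values was not tested further.

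Genes of androgen action were few. Of the 4 tested, 0 were past the threshold, and the median log2 fold change was 0.11. Tubb3 had 697 and 725 against 709 and 743, and the genotypes overlap. In the other cell type lists 0 genes were past the threshold. The median log2 fold changes were -0.08 for 7 Sertoli cell genes tested, -0.02 for 5 peritubular myoid cell genes, -0.07 for 6 macrophage genes and 0.12 for 7 germ cell genes. The epididymis list had 1 gene tested, Rnase10 (0.38), with Crisp1 at 0 in 3 of 4 libraries, and the fat list 1, Adipoq (-0.22).

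Blood genes lay lower in part. Of 3 tested, the globin gene Hba-a2 had 238 and 332 against 194 and 200, a log2 fold change of -0.57 (edgeR adjusted p = 0.922). Hbb-b1, the other globin gene tested, had 15.0 and 26.1 against 15.0 and 10.6, a log2 fold change of -0.75 (edgeR adjusted p = 0.954), and the median of the list was -0.57. The highest value of both globin genes is in Nef-sp+/- replicate 2. Hba-a2 was lower in both Nef-sp-/- libraries than in both Nef-sp+/- libraries, and for Hbb-b1 the genotypes overlap. Alas2, of heme synthesis, had 218 and 187 against 226 and 244. Summed normalised counts of the blood list were 471 and 545 against 435 and 454, and of the macrophage list 1597 and 1578 against 1463 and 1684. The collagen genes Col1a2 and Col3a1 of connective tissue, named after their values were seen, had ranks 3 and 5 from the lowest log2 fold change among features with a mean over 50. Col1a2 had 176 and 284 against 142 and 118, a log2 fold change of -0.87 (edgeR adjusted p = 0.859). Col3a1 had 222 and 456 against 254 and 170, a log2 fold change of -0.73 (edgeR adjusted p = 0.954), and the genotypes overlap. Both were highest in Nef-sp+/- replicate 2. The part of blood, macrophages and connective tissue in the kallikrein values was not tested.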

How the data were processed

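RNA-seq counts of 4 testis libraries, 2 Nef-sp-/- and 2 Nef-sp+/-, were grouped by the genotype and replicate number of the labels. The authors aligned adapter-trimmed reads to mm9 by software of their own, retained those that matched perfectly and deposited the raw counts of each feature by annotation category and strand. Neither software versions nor the handling of multiply matching reads is given in the sources used here. The deposited table also holds the authors' own DESeq2 comparison (a mean signal, fold changes and p-values), which was not used. The members and the gene lists were chosen with earlier results of these data known.

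Counts were fitted with edgeR 4.0.16 in R 4.3.3 (TMM, minimum count 10, quasi-likelihood test, no covariate) over all gene exon sense features, with Benjamini-Hochberg adjustment and a threshold of 0.05. Normalised counts are counts over effective library size relative to its mean. A count of 0.5 was added before log2 for patterns and ranks. The fit was checked on simulated counts. Exon windows of 50 bases were matched to NCBIM37 with GENCODE vM1. Windows of the spliced transcripts, used for levels per window found in 1 gene only, were matched to GENCODE vM1 protein-coding transcripts. Upstream sequences are from RefSeq on GRCm38.p6, aligned with MAFFT 7.526, and no coordinates were converted. Confidence intervals are Wilson intervals at 95% (statsmodels 0.14.6). Total counts of 20659865 to 34442517 reads per library set the precision, and members with few reads are described as such.

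Named are all members in every category, the 10 features nearest to Klk1b21, Nef-sp, list genes past the threshold, the most abundant genes of each list and the genes next to the cluster. Wfdc1, Col1a2, Col3a1 and the list genes outside this rule were named after their values were seen. The alternatives were DESeq2 size factors, library size without TMM, DESeq2 1.42.0 with and without a prior on fold changes, omission of the filter or a stricter one (10 counts in each library), a joint fit of every category, a replicate block, leaving out each library, and levels per window found in 1 gene only.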

Additional observations from a re-analysis of the deposited data

How the results depend on the processing

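Klk1b21, Klk1b22, Klk1b24 and Klk1b27 had log2 fold changes below 0 under every alternative run. Apart from the DESeq2 prior and the omission of a library, these ranged from -0.87 to -0.84, -0.64 to -0.56, -0.70 to -0.68 and -0.93 to -0.90. With the prior of DESeq2, which shrinks fold changes, they were -0.33, -0.040, -0.26 and -0.11. Leaving out 1 library gave -1.12 to -0.57 for Klk1b21, -1.08 to -0.029 for Klk1b22, -0.94 to -0.43 for Klk1b24 and -1.23 to -0.57 for Klk1b27. DESeq2 with or without the prior called 1 member and 2 features. Leaving out 1 library gave 0 to 5 members, 0 to 7 genes of the lists and 1 to 252 features called. The largest counts came without Nef-sp+/- replicate 2, the deepest library, when Nef-sp+/- replicate 1 was the only control. Most features called in that fit were higher in Nef-sp-/-, and the cause was not tested. The order of mean levels changed for 2 members when reads were divided by spliced-transcript windows found in 1 gene only.

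The replicate numbers of the labels gave no sign of pairing: deviations of same-numbered libraries correlated at -0.08 over 10728 features. With the replicate number as a block, 0 members and 1 feature were called, as without it. Low counts and shared sequence limit Klk1b5 and Klk1b26, and shared sequence limits the split of reads among Klk1b21, Klk1b24 and Klk1b27.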
